A study of Mus musculus with 16 samples.

Results

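The genes described here are 37 genes of cell division and DNA replication, chosen by name from E2f1 and the Mcm genes to the late mitotic genes, and read in mouse liver on Illumina BeadChips, which are 1-colour arrays of bead-bound probes. Of the 37 genes, 32 had an annotated probe among 16593 annotated genes, and Ccnb1, Aurkb, Mki67, Tacc3 and Racgap1 had none and were not analysed here. The 32 genes were covered by 56 probes. A probe counted as detected on an array where its detection p over negative controls was under 0.05, and the groups were compared for the 25 probes of 19 genes detected on at least 4 of 16 arrays.

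Each array read 1 liver of a male C57BL/6 mouse, with 4 mice in each of 4 groups, and the spread between these mice is what the p-values measure. Garlic oil mice ate the Lieber-DeCarli liquid diet with ethanol and received 50 mg/kg of garlic oil, DADS mice ate the same ethanol diet and received 15 mg/kg of diallyl disulfide, an allyl sulfide of garlic, alcohol mice ate the ethanol diet and received the vehicle alone, and control mice were pair-fed the liquid diet without ethanol and received the vehicle alone. The vehicle was 0.1 ml of olive oil, given to all 4 groups by daily gavage for 4 weeks, so no group was without olive oil and no group had garlic oil or DADS without ethanol. The ages of the mice are not given in the sources used here. Garlic oil and DADS arrays lay on 1 chip and alcohol and control arrays on the other, so every comparison of a garlic-treated group with alcohol or control cannot be told apart from the chip.

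A cell that is about to divide first assembles the MCM helicase on its replication origins under control of E2F transcription factors, then copies its DNA with enzymes that supply deoxynucleotides and hold the polymerase on the template. Cyclins and their kinase drive it into mitosis, where Plk1, the Aurora kinases and Cdc20 with the anaphase-promoting complex order the separation of chromosomes, and Prc1 and its partners build the spindle midzone. Hepatocytes of an adult liver are mostly quiescent and can re-enter the cycle after injury or loss of tissue, while other liver cells also divide. In whole liver, fewer cells of a type and less RNA per cell cannot be told apart.

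Most of the genes that mark S phase and mitosis were dim or undetected in all 4 groups. Of the 32 genes with a probe, 10 were detected on all 16 arrays (Mcm4, Mcm5, Mcm6, Pcna, Rrm1, Tk1, Tyms, Ccnd1, Cdca3 and Cenpa). A further 11 were detected on none: Mcm3 and Mcm7 of the helicase, Top2a, the topoisomerase that untangles replicated DNA, the cyclins Ccna2, Ccnb2 and Ccne2, the spindle checkpoint kinase Bub1b, the ubiquitin-conjugating enzyme Ube2c, Cdca8 of the chromosomal passenger complex, and the mitotic kinesins Kif11 and Kif20a. Nusap1, a microtubule-bundling protein of the spindle, was detected on 3 arrays, all from alcohol mice, and Aurka on 1 array, from an alcohol mouse. These 2 genes were therefore not compared. Aurka was detected at 5.55 on the log2 scale on alcohol replicate 4. The lowest detected signal of any probe on that array was 5.54, against 5.57 to 5.77 on the other arrays. Detection on alcohol arrays alone thus depends in part on how sensitive each array was. By role, 5 of 7 licensing genes, 5 of 6 genes of DNA synthesis, 2 of 6 cyclin and kinase genes, 3 of 7 mitotic regulators and 4 of 11 chromosome and spindle genes passed the filter.

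**Figure D1:**
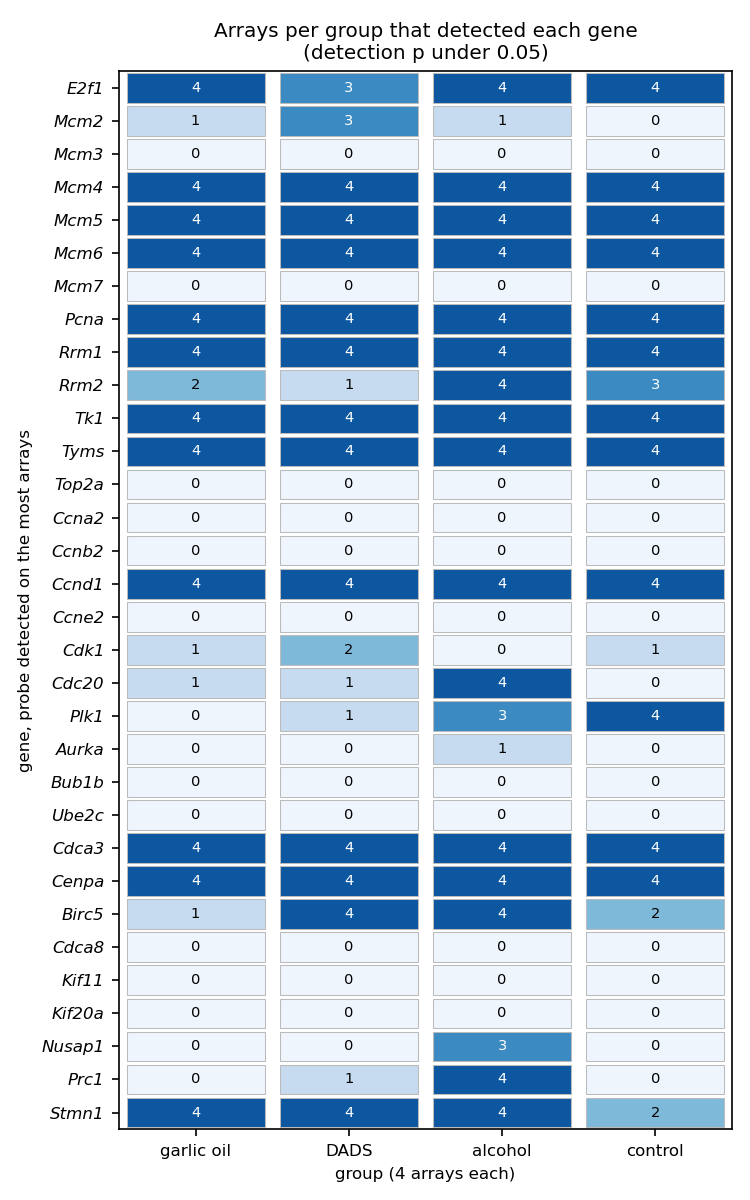
The number of arrays, of 4 in each group, on which each of the 32 genes with a probe was detected, using the probe detected on the most arrays, with groups across the page and genes down it, darker cells standing for more arrays. The 11 rows of 0 are genes detected on no array, and Prc1, Cdc20 and Nusap1 were detected on 4, 4 and 3 alcohol arrays and on 0 control arrays.

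Counted per array, 20, 17, 16 and 19 of the 56 probes were detected in garlic oil mice, 20, 22, 16 and 18 in DADS mice, 20, 20, 25 and 24 in alcohol mice, and 16, 17, 19 and 19 in control mice. Each array detected between 10631 and 11526 probes of all kinds. By group the range was 11133 to 11331 for garlic oil, 10760 to 11396 for DADS, 10742 to 11526 for alcohol and 10631 to 10874 for control. Alcohol replicate 4 had the most, and control arrays were low in this range. The alcohol arrays with the most cell cycle probes were replicates 3 and 4. The median deviation of the 25 tested probes from their 16-array means lay between -0.36 and 0.02 on the log2 scale for garlic oil arrays, between -0.20 and 0.02 for DADS arrays, between 0.15 and 0.33 for alcohol arrays and between -0.10 and 0.08 for control arrays. The 4 alcohol arrays thus stood above the other 12 in this summary. It describes probes chosen by gene name and by the detection filter, and carries no test. Prc1, Cdc20 and a dim Mcm6 probe passed that filter mainly through alcohol arrays, and the deviations were not computed without them.

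**Figure D2:**
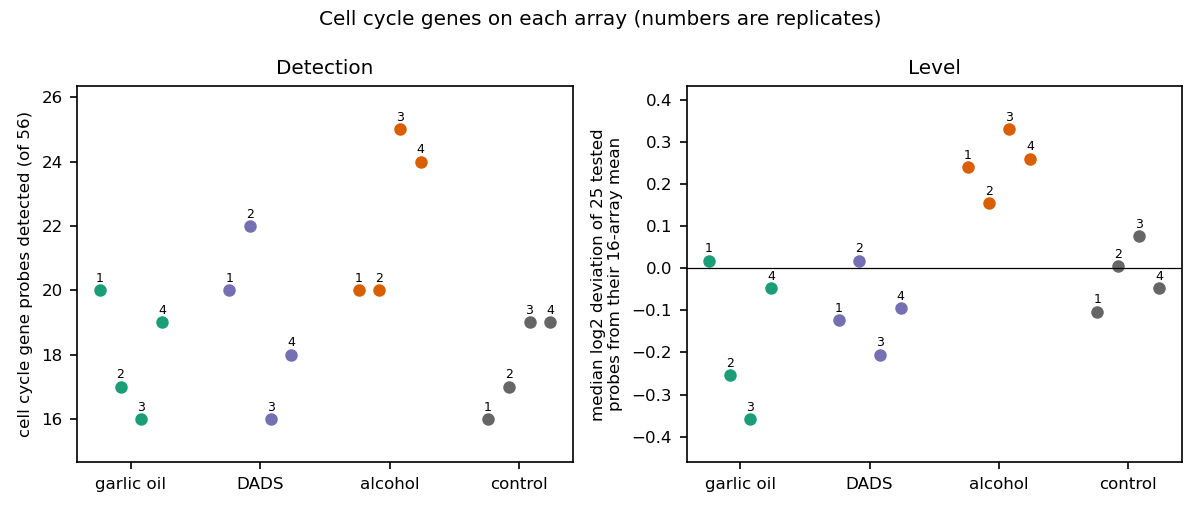
Each point is 1 array, numbered by replicate, with the number of the 56 cell cycle gene probes detected on the left and the median log2 deviation of the 25 tested probes from their 16-array means on the right. The deviations of the alcohol arrays, from 0.15 to 0.33, lie above those of all other arrays, whereas the detection counts of alcohol replicates 1 and 2, both 20, lie within the range of the garlic oil and DADS arrays.

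Alcohol and control arrays shared a chip, and their comparison asked what the ethanol diet did to these genes. E2f1, Mcm6, Cdc20, Prc1 and Stmn1 rose in alcohol mice and none fell, so 5 of 25 probes, or 20%, passed limma's test at an adjusted p under 0.05, against 3.27% of the 11938 probes tested. The median log2 change of the 25 probes was 0.26, against -0.02 for all probes tested, and 16 of the 25 were higher in alcohol mice. Counts and medians over tested probes carry a limit of their own, since Prc1, Cdc20 and the dimmer of the Mcm6 probes passed the filter mainly through alcohol arrays, which were 4 of 5, 4 of 6 and 3 of 4 of their detecting arrays. The median was not computed without them. When the filter was applied to the 12 other arrays, a setting chosen after seeing the data, the count was 3. It was also 3 without alcohol replicate 3, when 1.4% of all probes passed. Fitted on the alcohol and control arrays alone, all 5 genes passed, with Mcm4 and the dimmer Mcm6 probe beside them.

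Garlic oil and DADS mice were each set against the same alcohol mice, to ask what the treatments did on top of ethanol. In garlic oil mice E2f1, Mcm4, Cdc20, Plk1, Cenpa, Prc1 and Stmn1 fell, 7 of 25 probes or 28%, against 1.42% of all probes tested. In DADS mice E2f1, Mcm5, Cdc20, Cenpa and Prc1 fell, 5 of 25 or 20%, against 2.55% of all probes tested. No probe of these genes rose in either comparison. With the filter on the 12 arrays other than alcohol, which left out Prc1 and Cdc20, 5 probes passed for garlic oil and 3 for DADS. For garlic oil the count was 3 under median scaling, 4 with the deposited normalized table and 4 without a filter, and for DADS it was 2 without a filter. The median log2 change of the 25 probes was -0.44 for garlic oil and -0.18 for DADS, against -0.01 and 0.02 for all probes tested. These medians include Prc1, Cdc20 and the dimmer Mcm6 probe. The 2 comparisons share their alcohol arrays.

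Alcohol replicate 3 weighed most on these counts: without it 1 probe passed for garlic oil (Prc1) and 1 for DADS (E2f1), while the shares of all probes were 0.226% and 0.938%. For garlic oil the count was 4 without garlic oil replicate 1 or 2, 3 without garlic oil replicate 3 or 4, and 4 without alcohol replicate 1 or 2. For DADS it was 3 without DADS replicate 3 or 4. All 9 pancreatic acinar markers with a probe were detected on alcohol replicate 1, with a summed level of 18.66 on the log2 scale, against 9.72 to 11.35 on the other arrays. Without it 5 probes passed for DADS against alcohol and 4 for alcohol against control.

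**Figure D3:**
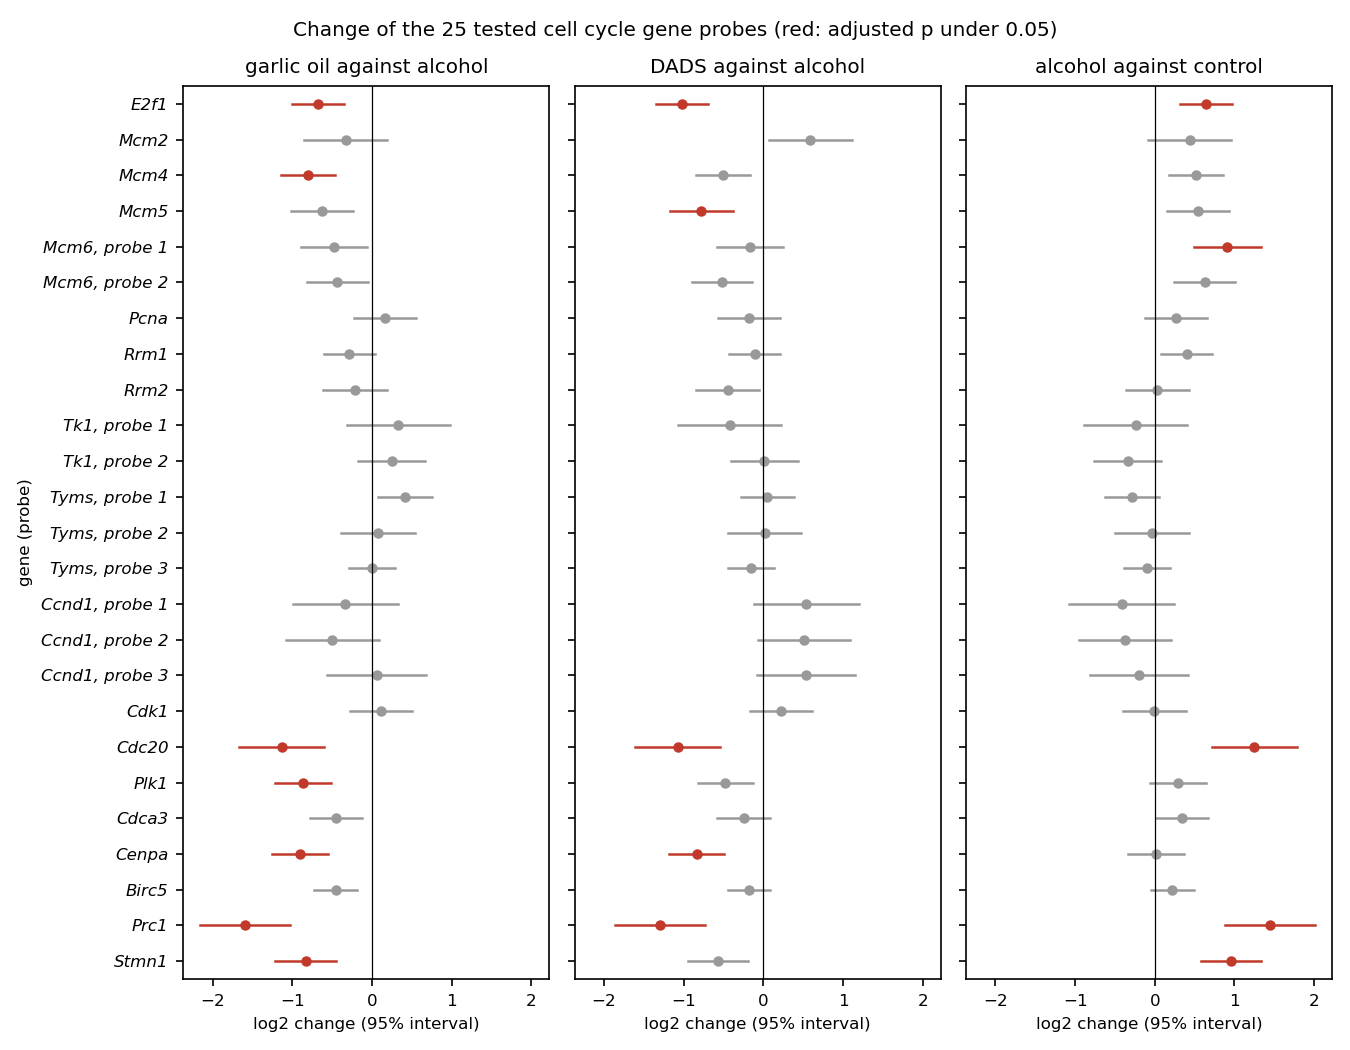
Log2 change with its 95% interval for each of the 25 tested probes, in garlic oil against alcohol, DADS against alcohol and alcohol against control from left to right, with probes of a gene numbered by brightness. Red points passed the adjusted threshold, 7, 5 and 5 in the 3 panels, all below 0 in the panels against alcohol and all above 0 in the panel against control.

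Promoter windows of the cell cycle genes, most of which were undetected or passed no test, were read for the letters of known cell cycle elements, since E2F sites serve S phase genes and CCAAT boxes and the cell cycle homology element serve G2 and mitotic genes. RefSeq promoter windows on GRCm38.p6 (250 bases before to 50 after each start site) were given for 30 of the 37 genes. The letters TTTGAA of the cell cycle homology element, on either strand, were in the windows of 16 of 30 genes, or 53.3%, against 17.89% of all 32851 windows. CCAAT, on either strand, was in 24 of 30 genes, or 80%, against 37.41% of all windows. The E2F letters TTTCCCGC or TTTGGCGC were in 4 of 30 genes, or 13.3%, against 1.56% of all windows. A match of letters is a description and not a binding site. The start sites are those given with the windows and need not be the main ones. The E2f1 entry was searched with the others and is counted among the 30 as a gene without these letters. For the reason given, nothing more was read from it.

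The 250 bases before the start site are shown for 5 of the genes with a call, 5′ to 3′ on the strand of the gene. All 5 hold some of these letters in their windows. E2f1, which has calls but none of the letters, is not shown, so the 5 do not stand for all genes with a call. Motif letters of either strand are in capitals. Prc1 (chr7:80294201-80294450, plus strand) and Cdc20 (chr4:118437344-118437593, minus strand) stand for the rise with alcohol, and Mcm6 (chr1:128359706-128359955, minus strand) for licensing. Cenpa (chr5:30666636-30666885, plus strand) is the gene that separated garlic oil and DADS arrays from alcohol and control arrays. Plk1 (chr7:122159185-122159434, plus strand) is, like Cenpa, a gene lower in garlic oil mice than in alcohol and control mice.
Prc1: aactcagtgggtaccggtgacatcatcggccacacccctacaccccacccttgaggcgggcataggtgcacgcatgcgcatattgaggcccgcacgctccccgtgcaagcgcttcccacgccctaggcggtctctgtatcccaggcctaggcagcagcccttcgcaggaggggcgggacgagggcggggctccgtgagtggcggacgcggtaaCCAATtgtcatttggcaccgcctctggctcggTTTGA
Cdc20: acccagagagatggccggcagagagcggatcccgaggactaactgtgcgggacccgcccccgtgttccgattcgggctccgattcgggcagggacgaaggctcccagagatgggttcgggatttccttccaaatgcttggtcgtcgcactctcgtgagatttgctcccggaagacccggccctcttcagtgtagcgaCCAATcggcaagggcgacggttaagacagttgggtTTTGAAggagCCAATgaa
Mcm6: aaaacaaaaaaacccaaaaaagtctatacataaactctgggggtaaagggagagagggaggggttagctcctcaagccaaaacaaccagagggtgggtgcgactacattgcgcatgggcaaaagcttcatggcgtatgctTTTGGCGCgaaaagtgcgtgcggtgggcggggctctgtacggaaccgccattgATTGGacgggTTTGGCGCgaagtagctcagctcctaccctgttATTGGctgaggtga
Cenpa: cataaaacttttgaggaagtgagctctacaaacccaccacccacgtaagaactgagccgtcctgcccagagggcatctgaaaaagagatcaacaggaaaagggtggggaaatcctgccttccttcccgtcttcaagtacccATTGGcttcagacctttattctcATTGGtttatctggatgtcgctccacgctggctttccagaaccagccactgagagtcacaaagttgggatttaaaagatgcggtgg
Plk1: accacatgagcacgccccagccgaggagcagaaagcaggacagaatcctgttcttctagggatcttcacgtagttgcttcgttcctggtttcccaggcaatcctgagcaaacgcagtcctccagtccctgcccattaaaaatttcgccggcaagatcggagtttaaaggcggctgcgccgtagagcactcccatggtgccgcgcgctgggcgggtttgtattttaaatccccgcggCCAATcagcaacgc

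Cdc20 held TTTGAA 18 bases before its start site, with CCAAT 53 and 8 bases before it. Prc1 held CCAAT 37 bases before its start site, and its TTTGAA began 5 bases before the start site and ran past it, so that its last letter is not shown. Mcm6 held TTTGGCGC 110 and 47 bases before its start site, and ATTGG, which is CCAAT of the opposite strand, 57 and 14 bases before it. Cenpa held ATTGG 109 and 86 bases before its start site, and Plk1 CCAAT 14 bases before it. Both also held TTTGAA after the start site, beyond the bases shown, at base 17 in Cenpa and base 31 in Plk1. Stmn1, Mcm4 and Ccnd1 were not read here.

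Prc1, the microtubule cross-linker that builds the spindle midzone, was detected on all alcohol arrays and on 1 other array. Its log2 signal was 5.53, 5.10, 4.996 and 5.43 in garlic oil mice, 5.44, 6.30, 5.53 and 4.98 in DADS mice, 6.38, 6.34, 7.37 and 7.35 in alcohol mice, and 5.22, 5.70, 5.50 and 5.22 in control mice. All alcohol arrays lay above all others, with replicates 3 and 4 highest, and DADS replicate 2 lay just below the lowest of them. Prc1 was detected on no garlic oil or control array, so changes against those groups are given as lower bounds, with the detection limit of the undetected arrays in place of the undetected signal. Here and below, such a bound leaves out the spread between mice, and the p-value beside it is of the change in the normalized signals. It rose at least 2.18-fold in alcohol mice against control (adjusted p = 0.006334 by limma) and was at least 2.38-fold lower in garlic oil mice than in alcohol mice (adjusted p = 0.009461). In DADS mice it fell by 1.30 ± 0.27 on the log2 scale against alcohol (SE, adjusted p = 0.01712 by limma), with 1 of 4 DADS arrays detecting it and an adjusted p of 0.05677 without alcohol replicate 3 and 0.05192 without a filter.

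Cdc20, the activator of the anaphase-promoting complex, was likewise highest in alcohol mice. Its log2 signal was 5.44, 5.15, 4.83 and 5.64 in garlic oil mice, 5.16, 6.07, 5.19 and 4.89 in DADS mice, 6.04, 5.92, 6.66 and 6.96 in alcohol mice, and 5.30, 5.23, 5.03 and 5.03 in control mice. Replicates 3 and 4 were again the highest alcohol arrays, and DADS replicate 2 overlapped the 2 lower ones. Cdc20 rose at least 1.58-fold in alcohol mice against control, where no array detected it (adjusted p = 0.01138 by limma). Against alcohol its log2 signal fell by 1.13 ± 0.25 in garlic oil mice (adjusted p = 0.03919) and by 1.07 ± 0.25 in DADS mice (adjusted p = 0.03311), with 1 of 4 arrays detecting it in each treated group. The garlic oil call failed without any 1 garlic oil array, without alcohol replicate 3 or 4 or without control replicate 2, 3 or 4 (adjusted p from 0.05029 to 0.09633 by limma), and the DADS call without DADS replicate 1, 3 or 4 or alcohol replicate 3 or 4 (0.06712 to 0.08992). Both failed with the deposited table (0.07809 and 0.07196) and without a filter (0.07502 and 0.07626), and the garlic oil call under median scaling (0.05147). Both calls also failed with the replicate number as a block. The dimmer Cdc20 probe was detected on 2 alcohol and 1 control arrays, was not tested, and averaged 5.55 ± 0.26 in alcohol and 5.60 ± 0.23 in control mice (SD, n = 4 each). These means do not show the rise of the first probe. Most of the arrays did not detect this probe, so they cannot decide whether the 2 probes differ.

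Nusap1 was left out of the tests by the filter. Its log2 signal was 5.30, 5.18, 4.92 and 5.12 in garlic oil mice, 5.09, 5.47, 4.96 and 4.82 in DADS mice, 5.33, 5.83, 6.61 and 5.95 in alcohol mice, and 5.27, 4.94, 5.10 and 5.32 in control mice. Alcohol replicates 2, 3 and 4 held its 3 highest values, with replicate 3 the highest. Nusap1 at 3 detecting arrays lay just outside the filter and the Mcm6, Ccnd1 and Cdk1 probes with 4 detecting arrays just inside it.

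Among the genes that license replication, E2f1, the transcription factor that drives S phase genes, had a log2 signal of 6.43, 6.13, 6.08 and 6.49 in garlic oil mice, 6.23, 6.15, 5.49 and 5.85 in DADS mice, 7.06, 6.87, 7.09 and 6.80 in alcohol mice, and 6.29, 6.34, 6.42 and 6.19 in control mice. The alcohol arrays lay close together and above all other arrays, and the garlic oil and control arrays overlapped. E2f1 rose by 0.65 ± 0.15 on the log2 scale in alcohol mice against control (SE, adjusted p = 0.02815 by limma). Against alcohol it fell by 0.67 ± 0.15 in garlic oil mice (adjusted p = 0.0426) and by 1.03 ± 0.15 in DADS mice (adjusted p = 0.002488). Without alcohol replicate 3, its change for DADS kept an adjusted p of 0.013, while those for garlic oil and for alcohol against control had 0.09693 and 0.09779. The garlic oil call also failed without any 1 garlic oil or control array or without alcohol replicate 1 or 2, at adjusted p-values from 0.05242 to 0.08803, and with the deposited table (0.06794), median scaling (0.08439) or no filter (0.05276). With the replicate number as a block, that call had an adjusted p of 0.05875 by limma. The alcohol call failed with the deposited table (adjusted p = 0.06079 by limma) and without alcohol replicate 1 or control replicate 1, 2 or 4 (0.07118 to 0.07844).

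Mcm4, Mcm5 and Mcm6, which with Mcm2, Mcm3 and Mcm7 form the ring of the replicative helicase, were detected on every array. The log2 signal of Mcm4 was 7.84, 7.50, 7.19 and 7.28 in garlic oil mice, 8.13, 7.65, 7.81 and 7.42 in DADS mice, 8.46, 8.21, 8.30 and 8.06 in alcohol mice, and 7.77, 7.80, 7.72 and 7.65 in control mice. Alcohol arrays were above all garlic oil and control arrays, and only DADS replicate 1 reached into their range. Mcm4 fell by 0.80 ± 0.16 on the log2 scale in garlic oil mice against alcohol (SE, adjusted p = 0.01984 by limma). Its change was -0.50 in DADS mice against alcohol (adjusted p = 0.1024) and 0.52 in alcohol mice against control (adjusted p = 0.08725), neither past the threshold. The garlic oil call failed without garlic oil replicate 3 or 4 or without alcohol replicate 1, 2 or 3 and under median scaling, at adjusted p-values from 0.05146 to 0.06529 by limma.

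The log2 signal of Mcm5 was 6.53, 6.04, 5.89 and 6.31 in garlic oil mice, 6.21, 5.90, 6.01 and 6.04 in DADS mice, 6.89, 6.62, 7.06 and 6.70 in alcohol mice, and 6.73, 6.41, 5.74 and 6.22 in control mice. Both treated groups lay below all alcohol arrays, while the control arrays were spread from the level of the treated groups into the range of the alcohol arrays. Mcm5 fell by 0.78 ± 0.19 on the log2 scale in DADS mice against alcohol (SE, adjusted p = 0.03488 by limma), and its change was -0.63 ± 0.19 in garlic oil mice (adjusted p = 0.09192). The DADS call failed without DADS replicate 2, 3 or 4 or alcohol replicate 1 or 3, and without a filter, at adjusted p-values from 0.06101 to 0.09611 by limma.

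Mcm6 had its lowest mean in control mice. The log2 signal of its brightest probe was 7.35, 6.40, 6.62 and 6.82 in garlic oil mice, 7.53, 6.90, 7.21 and 6.79 in DADS mice, 7.24, 7.12, 7.67 and 7.07 in alcohol mice, and 6.38, 6.38, 6.23 and 6.46 in control mice. Alcohol and DADS arrays overlapped with each other and lay above all control arrays, while garlic oil replicate 2 lay within the control range. Mcm6 rose by 0.91 ± 0.20 on the log2 scale in alcohol mice (SE, adjusted p = 0.01627 by limma) and by 0.75 ± 0.20 in DADS mice (adjusted p = 0.01675), both against control. The alcohol call failed without alcohol replicate 3 (adjusted p = 0.07143 by limma) or control replicate 3 (0.05153), and the DADS call without DADS replicate 1 (0.05848). Its change in DADS against alcohol was -0.17 (95% interval -0.58 to 0.25). A dimmer Mcm6 probe, detected on 3 alcohol arrays and 1 DADS array, had an adjusted p of 0.06593 for alcohol against control, and the other probes of Mcm6 did not pass the filter.

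Mcm2 was detected on 1 garlic oil, 3 DADS, 1 alcohol and 0 control arrays. Its log2 signal was 5.77, 5.003, 5.38 and 4.82 in garlic oil mice, 6.57, 6.74, 5.94 and 5.40 in DADS mice, 5.46, 5.43, 5.89 and 5.52 in alcohol mice, and 5.20, 5.09, 5.30 and 4.96 in control mice. DADS replicates 1 and 2 were the highest arrays, and DADS replicate 4 lay below the alcohol arrays and within the range of the garlic oil arrays. Mcm2 rose at least 1.35-fold in DADS mice against control (adjusted p = 0.009863 by limma), but it passed the filter mainly through the DADS arrays, which were 3 of its 5 detecting arrays. It was the 1 licensing gene whose DADS mean, 6.16 ± 0.61, stood above its alcohol mean, 5.57 ± 0.21 (SD, n = 4 each), a difference that did not pass the test (adjusted p = 0.2173 by limma).

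The genes of DNA synthesis had no probe past the threshold in any comparison. These were Pcna, the sliding clamp of DNA polymerase, Rrm1 and Rrm2, the subunits of ribonucleotide reductase, Tk1, thymidine kinase, and Tyms, thymidylate synthase, read by 8 probes. Whether they differed from the other roles was not tested. Rrm1 came with the smallest raw p in alcohol against control among them, at a log2 change of 0.40 (adjusted p = 0.1647 by limma), and averaged 7.07 ± 0.11 in alcohol and 6.66 ± 0.24 in control mice (SD, n = 4 each). Pcna averaged 7.56 ± 0.18, 7.21 ± 0.17, 7.39 ± 0.46 and 7.13 ± 0.18 in garlic oil, DADS, alcohol and control mice. The brightest Tyms probe had a log2 change of 0.41 in garlic oil mice against alcohol (adjusted p = 0.1846), opposite in sign to the changes of the licensing genes, and its other 2 tested probes changed by 0.08 and 0.00. The brightest Tk1 probe spread widely, from 7.50 to 9.09 in DADS mice and from 8.11 to 9.11 in alcohol mice.

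Of the cyclins and their kinase, Ccnd1 and Cdk1 could be compared. Ccnd1 encodes cyclin D1, which links growth signals to entry into the cycle and is expressed in liver outside division too. The probe that passed a test had a log2 signal of 9.87, 8.92, 8.31 and 9.35 in garlic oil mice, 10.71, 10.37, 9.57 and 9.82 in DADS mice, 9.97, 9.34, 9.63 and 9.51 in alcohol mice, and 10.15, 9.84, 9.90 and 10.03 in control mice. The garlic oil arrays were spread the most, with replicate 3 lowest, DADS replicates 1 and 2 were highest, and the groups overlapped. Ccnd1 fell by 0.87 ± 0.28 on the log2 scale in garlic oil mice against control (SE, adjusted p = 0.03895 by limma), while the other bright probe changed by -0.75 ± 0.31 (adjusted p = 0.1039). The call failed without garlic oil replicate 2, 3 or 4 or any 1 control array, and under median scaling or without a filter, at adjusted p-values from 0.05219 to 0.1219 by limma. Cdk1, the kinase of mitotic entry, was detected on 1 garlic oil, 2 DADS, 0 alcohol and 1 control arrays and passed no test.

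Among mitotic regulators, Plk1, the Polo kinase of mitosis, had a log2 signal of 5.45, 5.36, 5.04 and 5.41 in garlic oil mice, 5.56, 6.01, 5.58 and 5.67 in DADS mice, 5.69, 6.15, 6.31 and 6.58 in alcohol mice, and 5.83, 6.01, 5.88 and 5.84 in control mice. No garlic oil array detected it, against 1 DADS, 3 alcohol and 4 control arrays, and every garlic oil array lay below every array of the other groups. The difference from DADS mice, on the same chip, did not pass the test (adjusted p = 0.2446 by limma). Garlic oil and DADS arrays did not overlap for 1 of the 25 probes, and for 928 of all 11938 probes tested. Plk1 was at least 1.48-fold lower in garlic oil than in alcohol mice (adjusted p = 0.01643 by limma) and at least 1.21-fold lower than in control mice (adjusted p = 0.0242 by limma). The first call failed without alcohol replicate 3 (adjusted p = 0.05485 by limma) and the second without garlic oil replicate 3 or control replicate 2 or 3 or under median scaling (0.05039 to 0.07197). Cdca3, a cell cycle gene linked to mitotic entry, was detected on all arrays and averaged 6.38 ± 0.16, 6.59 ± 0.25, 6.84 ± 0.17 and 6.50 ± 0.27 in garlic oil, DADS, alcohol and control mice (SD, n = 4 each), with no test passed. Birc5, survivin of the chromosomal passenger complex, changed by -0.46 ± 0.13 on the log2 scale in garlic oil mice against alcohol (SE, adjusted p = 0.0757).

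Stmn1, stathmin, a protein that destabilises microtubules, had a log2 signal of 5.93, 5.80, 5.69 and 6.04 in garlic oil mice, 6.31, 6.57, 5.76 and 5.87 in DADS mice, 6.67, 6.50, 6.74 and 6.88 in alcohol mice, and 5.46, 6.17, 5.58 and 5.76 in control mice. All alcohol arrays lay above the garlic oil and control arrays, and DADS replicate 2 reached the lowest alcohol array. Stmn1 rose by 0.96 ± 0.18 on the log2 scale in alcohol mice against control (SE, adjusted p = 0.007057 by limma), where 2 of 4 control arrays detected it. It fell by 0.83 ± 0.18 in garlic oil mice against alcohol (adjusted p = 0.03267), and its change in DADS mice was -0.57 (adjusted p = 0.1017). The garlic oil call failed without any 1 garlic oil or alcohol array, and with the deposited table, median scaling or no filter, at adjusted p-values from 0.05168 to 0.07603 by limma, and the alcohol call under none of the arrays left out.

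Cenpa, the histone variant that marks centromeres, divided the arrays differently from all of these. Its log2 signal was 9.04, 9.24, 8.64 and 9.21 in garlic oil mice, 9.28, 8.92, 9.10 and 9.09 in DADS mice, 9.55, 9.88, 10.26 and 10.06 in alcohol mice, and 9.81, 10.15, 10.01 and 9.72 in control mice. The garlic oil and DADS arrays, all of 1 chip, lay below the alcohol and control arrays, all of the other. Cenpa fell by 0.90 ± 0.17 on the log2 scale in garlic oil mice (SE, adjusted p = 0.01413 by limma) and by 0.84 ± 0.17 in DADS mice (adjusted p = 0.01402) against alcohol, and by 0.89 and 0.83 against control (adjusted p = 0.001914 and 0.00323). Both calls against alcohol failed without alcohol replicate 3, at adjusted p-values of 0.05056 for garlic oil and 0.05042 for DADS by limma. Alcohol differed from control by 0.01 (95% interval -0.34 to 0.36) and garlic oil from DADS by -0.06 (95% interval -0.41 to 0.29), so treatment and chip cannot be told apart for this gene.

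**Figure D4:**
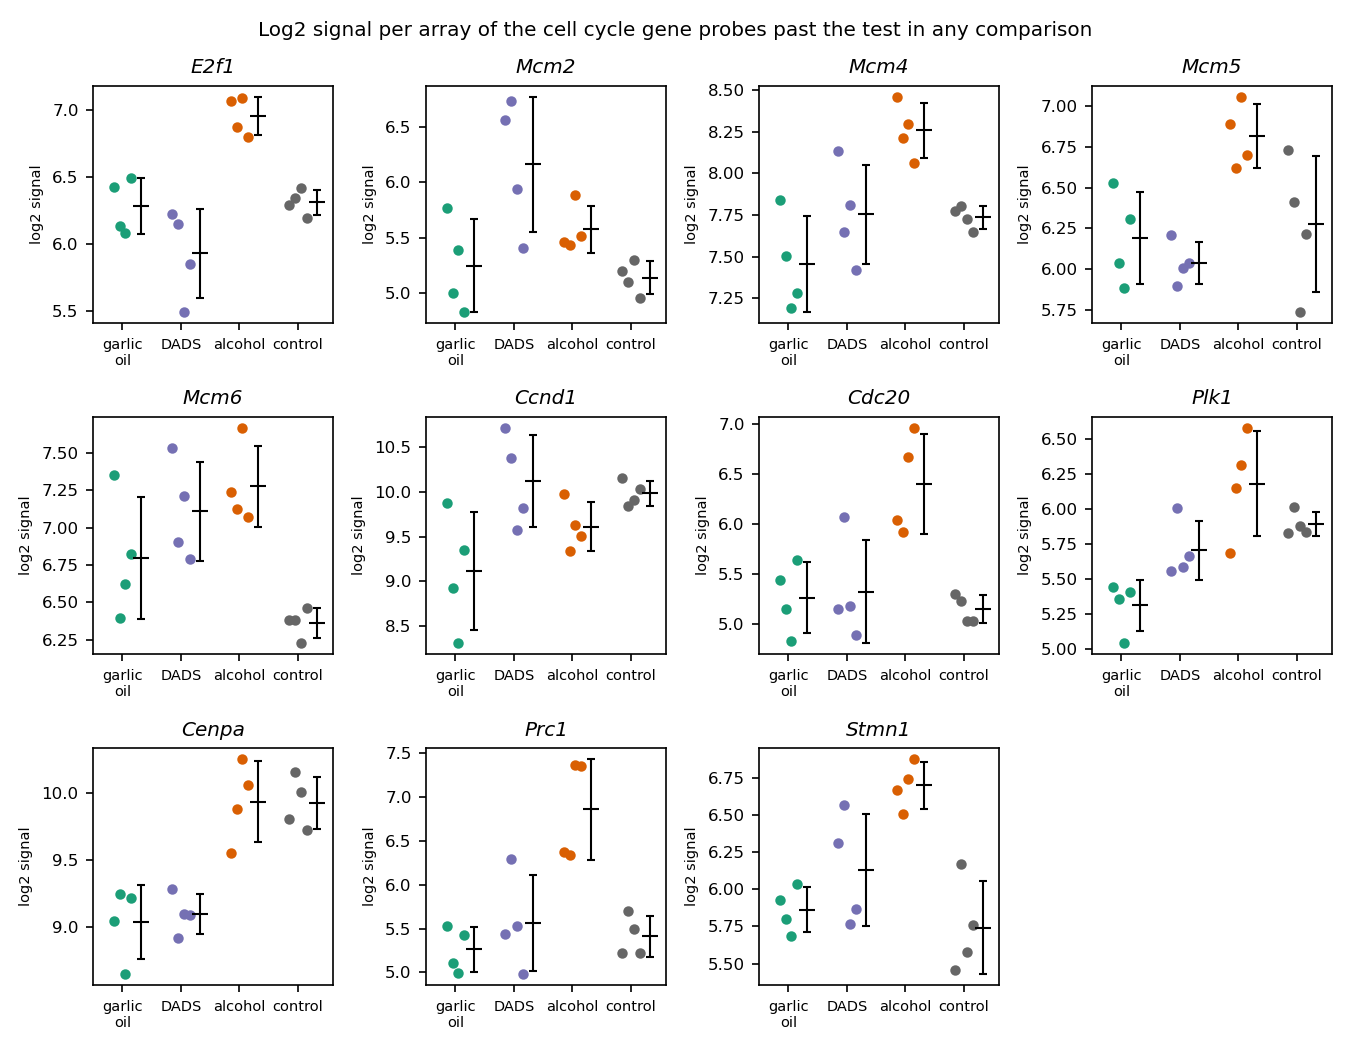
Log2 signal of the probes that passed the test in any comparison, 1 panel per gene, with a point for each array, and a line and whiskers for the mean and SD of each group of 4. E2f1, Cdc20, Prc1 and Stmn1 have their highest means in alcohol mice, Cenpa separates garlic oil and DADS from alcohol and control, and Mcm6 has its lowest mean in control mice, whose arrays lie at 6.23 to 6.46.

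Set directly against DADS, on the same chip, garlic oil moved none of the 25 probes past limma's threshold, against 1.62% of all probes tested, and 8 of the 25, or 32%, had an unadjusted p under 0.05, against 16.4% of all probes tested. The 2 compounds differ in that DADS is a single allyl sulfide and garlic oil a mixture, and they were given at 15 and 50 mg/kg, so doses were not matched. Ccnd1 and Mcm2 came close, Ccnd1 with a log2 change of -1.004 (95% interval -1.59 to -0.42, adjusted p = 0.07421 by limma) and Mcm2 with -0.92 (95% interval -1.44 to -0.40, adjusted p = 0.07001). Both passed without garlic oil replicate 1, and Mcm2 also passed without DADS replicate 4. E2f1, which fell with both treatments against alcohol, differed between them by 0.35 (95% interval 0.03 to 0.68, adjusted p = 0.2595). For Prc1 and Cdc20, at most 1 array of each treated group detected the probe, so no size of a difference is given.

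Against control, across chips, 3 of 25 probes or 12% passed in each treated group, against 17.7% of all probes tested for garlic oil and 16% for DADS, so neither share exceeded its background. For garlic oil these were Ccnd1, Plk1 and Cenpa, all lower, and the count was 1 without garlic oil replicate 3, control replicate 2 or control replicate 3. For DADS these were Mcm2 and Mcm6, higher, and Cenpa, lower. Of the genes that rose with alcohol against control, Mcm6 was also higher in DADS mice than in control mice. The log2 changes of E2f1 and Stmn1 against control were -0.03 (95% interval -0.35 to 0.30) and 0.12 (-0.26 to 0.50) in garlic oil mice and -0.38 (-0.71 to -0.05) and 0.39 (0.01 to 0.77) in DADS mice, none past the threshold. For Prc1 and Cdc20 no size is given, since no control array and at most 1 array of each treated group detected them. Over all 4 groups together, limma's moderated F test called 11 of 25 probes, against 18.3% of all probes tested, and these were the probes drawn array by array in the plot of log2 signals.

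Other genes of the cell cycle, listed by pathway, were read beside these. Of 40 tested probes of other replication genes, such as origin recognition, polymerase and replication factor C genes, 0 passed limma's test in alcohol against control and 12, or 30%, had an unadjusted p under 0.05, against 18.2% of all probes tested. Fen1, the flap endonuclease of lagging-strand synthesis, fell by 0.57 in garlic oil mice against alcohol, the 1 call of this list there, and 0 probes passed for DADS against alcohol, with 3, or 7.5%, at an unadjusted p under 0.05, against 17.7% of all probes tested. Of 40 tested probes of other mitotic and cyclin genes, 1 passed in alcohol mice against control, or 2.5%, against 3.27% of all probes tested. It was Tuba1b, an alpha tubulin, which rose by 0.72 on the log2 scale. At an unadjusted p under 0.05 there were 12, or 30%, against 18.2% of all probes tested. In DADS mice against alcohol 1 passed, or 2.5%, against 2.55% of all probes tested. It was Kif22, a chromosome-arm kinesin, which was at least 1.40-fold lower. Neither share of calls exceeded its background. In garlic oil mice against alcohol 2 passed, or 5%, against 1.42% of all probes tested. Kif22 was at least 1.41-fold lower and Cdca7 fell by 0.93 on the log2 scale. The Kif22 probe was detected on 3 alcohol, 2 control, 0 DADS and 0 garlic oil arrays. It thus passed the filter only through the chip of the alcohol and control arrays, and mainly through alcohol arrays. No other probe of these 2 lists passed in the comparisons of garlic oil, DADS and control with alcohol. Garlic oil against DADS gave 1 call in the 2 lists, Hjurp, the chaperone that loads Cenpa, which fell by 0.66 on the log2 scale. Against control, 2 replication probes rose and 5 fell in garlic oil mice, and 1 rose and 2 fell in DADS mice. These shares, 17.5% and 7.5% of 40 probes, did not exceed the 17.7% and 16% of all probes tested. The mitotic list had 1 rise and 7 falls in garlic oil mice, led by Tuba1b at 0.94 and Cdca7 at -1.09, and 3 rises and 3 falls in DADS mice, with Spc25, a kinetochore subunit, which changed by -1.61 and -1.73 on its 2 probes. Its shares, 20% for garlic oil and 15% for DADS, were near the same backgrounds.

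Cycle inhibitors and damage-responsive genes moved in both directions with alcohol. Of 23 tested probes, 3 rose and 2 fell in alcohol mice against control, or 21.7%, against 3.27% of all probes, and 2 rose and 1 fell in DADS mice against alcohol, or 13%, against 2.55%. Cdkn1a, which encodes the inhibitor p21, rose by 2.81 ± 0.53 and 1.64 ± 0.30 on the log2 scale on 2 probes in alcohol mice against control (SE), and Ccng1, a p53 target, rose by 0.59 ± 0.12. Gadd45a, a stress-induced growth arrest gene, fell by 1.53 ± 0.34 and 1.46 ± 0.36 on its 2 probes. In DADS mice against alcohol, Cdkn1a fell by 1.32 ± 0.30 on 1 probe and Gadd45a rose by 1.58 ± 0.36 and 1.47 ± 0.34. In garlic oil mice 0 of the 23 tested probes of this list passed limma's test against alcohol, and 1, or 4.35%, had an unadjusted p under 0.05, against 18.2% of all probes tested. Against control, Cdkn1a rose in garlic oil mice too, by 3.00 ± 0.53 and 1.55 ± 0.30 on the same 2 probes, by 0.84 ± 0.22 on another, and Gadd45a fell by 1.40 ± 0.34 and 1.32 ± 0.36. In DADS mice against control Cdkn1c, the inhibitor p57, rose by 0.69 ± 0.18 and Ccng1 by 0.42 ± 0.12. The list had 6 of 23 probes called for garlic oil and 2 of 23 for DADS against control, or 26.1% and 8.7%, against 17.7% and 16% of all probes tested. Alcohol and garlic oil mice thus both had higher Cdkn1a than control mice, whereas E2f1 and Stmn1 were lower in garlic oil than in alcohol mice. Those E2f1 and Stmn1 calls were lost in 15 and 11 of 25 alternative runs, and garlic oil arrays lay on the other chip. A link between Cdkn1a and these genes was not tested.

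The markers of liver cell types were read beside these genes, and their part in the results was not tested. All 8 hepatocyte markers were detected on all arrays. Of 12 macrophage probes, 8 fell in DADS mice against alcohol, where 2.55% of all probes were called, with a summed level of 11.68 to 13.07 on the log2 scale in DADS mice and 13.14 to 13.50 in alcohol mice, while 0 passed in garlic oil against alcohol and 0 in alcohol against control. Of 5 erythroid probes, 3 rose in garlic oil mice against alcohol, where 1.42% of all probes were called. Their summed level in garlic oil mice was 15.53 to 15.74, against 14.08 to 14.80 in alcohol mice, and 1 fell in DADS mice. Of the lymphocyte markers, Cd3g, Cd2, Cd8a, Cd79a and Nkg7 were detected on no array. Cd3e, Cd3d, Ms4a1 and Klrb1c were detected on 3, 4, 2 and 2 arrays, and Cd79b on 14 of 16. Of the bile duct markers, Krt19, Sox9 and Cftr were detected on no array and Krt7 on 5.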

How the data were processed

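Total liver RNA of 16 mice (500 ng each) was labelled and read on 1-colour BeadChips, 4 arrays per group, per the labels. Per the file headers, each array's deposited file pairs a raw linear intensity, the bead average of each of 25697 probes, with a detection p-value. A second deposited table gives intensity for all samples after adjustment and normalization by the authors, by a method not given in the sources used here. Per the submitters' processing notes, GenomeStudio, lumi and limma were used, with no version stated.

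Signals were normalized with limma 3.58.1 in R 4.3.3 by neqc (offset 16), which takes the background from the detection p-values, on the log2 scale. The 11938 probes with a detection p under 0.05 on 4 or more of 16 arrays were kept and went into 1 limma model of 4 group means with 12 residual degrees of freedom and two-sided moderated tests. Benjamini-Hochberg adjustment ran over all 11938 probes of each comparison, and an adjusted p under 0.05 counted as a change. Log2 changes had a median SE of 0.167, replicates correlated at 0.972 to 0.992, and 4 arrays a group set the precision. The code was tested on simulated data with known changes. Per-array values are given for probes past any test, and for the rest ranges or means, with the genes of the other cell cycle lists named by smallest p, up to 4 per list and comparison. Nusap1 and the second Cdc20 probe were singled out after their values were seen. The genes and lists were chosen with earlier results of these data known, so they are no independent support for results already known. Gene names are those of the annotation of the array's platform. Probe sequences were not used here, and the only coordinates used were those of the promoter windows. Garlic oil and DADS shared 1 chip of 8 arrays, and alcohol and control the other, and within a chip group and position cannot be told apart. Alternatives were the deposited table, no background correction, median scaling, other filters, 1 probe per gene, array weights, a replicate block, single chips and leaving out each array. Arrays with the same replicate number are not paired by the labels.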

Additional observations from a re-analysis of the deposited data

Results flagged for a closer look

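In each group of 4 arrays, the highest or lowest array was checked with Dixon's 95% criterion, for a gap to its neighbour too large a share of the range, over 100 sets of 1 probe in 1 group. Chance flags about 5 in 100 such sets, and 4 were found. Garlic oil replicate 1 stood apart for the dimmest Ccnd1 probe, at 6.39 log2 units against 5.04 to 5.19 on the other garlic oil arrays, a gap of 0.8886 of the range. DADS replicate 2 stood apart for Rrm1, at 7.34 against 6.80 to 6.85 on the other DADS arrays, a gap of 0.9006. Alcohol replicate 2 stood apart for Cdk1, at 5.67 against 5.33 to 5.34 on the other alcohol arrays, a gap of 0.95, and no alcohol array detected this probe. Control replicate 3 stood apart for a dim Mcm6 probe, at 5.46 against 5.17 to 5.19 on the other control arrays, a gap of 0.9281, with no control array detecting it.

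Probes outside the comparisons that some array but no control array detected were searched for a detected signal above every control array, and 5 were found. Undetected control signals are low, so the outcome of this search was nearly fixed by its rule. No such count was made over all probes. Nusap1 reached 6.611 log2 units in alcohol mice, against 4.94 to 5.32 in control mice, and was detected on alcohol replicates 2, 3 and 4. Aurka reached 5.553 on alcohol replicate 4, against 4.85 to 5.01 in control mice. The detection limit of that array was 5.541, the lowest of all arrays. Probes of Mcm6, Rrm2 and Tyms that did not pass the filter were each detected on 1 array: Mcm6 at 5.61 on DADS replicate 1 (control 4.98 to 5.17), Rrm2 at 5.766 on garlic oil replicate 1 (control 4.88 to 5.19) and Tyms at 5.79 on garlic oil replicate 3 (control 5.22 to 5.49). None of these probes was tested.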

How the results depend on the processing

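The 23 calls named by gene kept their sign under every alternative run, and 8 kept their call under each alternative that kept their probe: E2f1 in DADS against alcohol, Prc1 in alcohol against control and in garlic oil against alcohol, Cdc20 and Stmn1 in alcohol against control, Mcm2 in DADS against control, and Cenpa in both treated groups against control. Prc1 and Cdc20 could not be tested with the filter on the 12 arrays other than alcohol, nor Mcm2 with the stricter filter. Without alcohol replicate 3, 12 of the 23 were lost. Over the fits that left out 1 array each, the number of the 25 probes called ranged from 3 to 6 for alcohol against control, 1 to 6 for DADS against alcohol, 1 to 7 for garlic oil against alcohol, 0 to 2 for garlic oil against DADS, 2 to 4 for DADS against control, 1 to 4 for garlic oil against control, and 9 to 13 for the F test. Array weights gave 8 calls for alcohol against control and 1 for garlic oil against DADS. Filtering on the 12 arrays other than alcohol, chosen after seeing the data, gave 3 for alcohol against control and 3 for DADS against alcohol. Without a filter, DADS against alcohol had 2 calls and garlic oil against alcohol 4, with more probes tested. The deposited normalized table gave 4 for garlic oil against alcohol. Median scaling gave 3 there, 1 for garlic oil against DADS and 1 for garlic oil against control. For the deposited table, the weights and median scaling the cause was not tested. The labels do not pair the mice by replicate number. Over 24 pairs of groups and numbers the deviations of same-numbered arrays correlated at -0.39 to 0.41, with a median of -0.02. Arrays of other numbers correlated at -0.30 to 0.45, with a median of -0.01. Of the 16 arrays, 8 were closest to an array of their own number. Within each group the replicate number followed the position on the chip, and whether the mice were paired was not tested. With the replicate number as a block, garlic oil against DADS had 1 call, garlic oil against alcohol 5 and alcohol against control 6. The same block gave 4 calls for DADS against alcohol and 4 for garlic oil against control. Genes detected on few arrays lie near the background signal, where a fold against an undetected group is only a bound.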
